A study of Mus musculus with 4 samples.

Results

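Cytosolic ribosomal protein genes were followed in the mouse fibroblast line NIH3T3. The cells had received an siRNA against Timp1, an inhibitor of matrix metalloproteinases (siTIMP1, n = 2 arrays), or a control siRNA (siControl, n = 2 arrays). Apatite nanoparticles (sCA) carried both siRNAs, and the serum of the medium was 2% fetal calf serum in all groups. The labels also name the cells dermal fibroblasts. They do not state whether the samples of a group were separate cultures, so p-values cover the spread of these samples alone and that spread may be technical. RNA was read on 1-colour Agilent arrays with 60-base probes. Members were the non-control probes whose gene name is Rpl or Rps with a number, or Rplp0, Rplp1, Rplp2 or Rpsa. S6 kinases, names with -ps and Rps19bp1, which encodes a protein that binds Rps19 and is no ribosomal protein itself, were left out. This gave 86 of 37325 gene names, read by 185 of the 56605 probes, 53 of the large and 33 of the small subunit. The measurement for a gene is the normalised log2 signal of its brightest tested probe, which is the log2 processed signal minus the 75th percentile of the array. Brightness differs between probes for reasons other than transcript level, so the signals of different genes are not compared.

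A cytosolic ribosome joins a small subunit, which reads the mRNA, to a large subunit, which forms the peptide bonds. Each subunit is made of ribosomal RNA and of proteins that are used in mostly equal numbers, and their genes are known to be expressed in concert. Many of these mRNAs start with a tract of pyrimidines, the TOP motif, through which mTOR signalling sets how strongly they are translated, a step that an mRNA array does not see. In growing fibroblasts these transcripts are among the most abundant of the cell.

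Timp1, the targeted gene, had log2 signals of 3.28 and 2.98 on the siTIMP1 arrays, against 8.16 and 8.54 on the siControl arrays, so that siTIMP1 cells kept 2.68% of the control signal (limma adjusted p = 0.0105). The adjusted p for Timp1 was 0.137 without siTIMP1 replicate 1, 0.184 without siTIMP1 replicate 2 and 0.133 in a limma fit without a trend of variance with signal, with log2 fold changes between -5.41 and -5.04 when an array was left out. All 10 fibroblast markers examined were well above background on all 4 arrays. Of 4 epithelial markers, 1 was above background on all 4 arrays and 2, Cdh1 and Epcam, on none. Of 3 endothelial markers, 0 were above background on all 4 arrays and 2, Cdh5 and Kdr, on none. For 3 muscle markers these counts were 0 and 1. The remaining epithelial, endothelial and muscle markers were above background on some arrays but not all. Krt8, a keratin of epithelium, was above background on all 4 arrays, with -2.73 and -1.94 in siTIMP1, against -3.27 and -2.50 in siControl (log2 fold change 0.55, adjusted p = 0.479). Of 5 leukocyte markers, Cd68, Ptprc and Cd3e were above background on all arrays and 2, Lyz2 among them, on none. The share of spots well above background was lowest on siTIMP1 replicate 2 (45.9%) and highest on siControl replicate 2 (52.1%), and no spot was saturated. Per the file headers the arrays shared 1 slide, with the siControl arrays next to each other and the siTIMP1 arrays after them, so place on the slide and siRNA cannot be told apart.

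No ribosomal protein gene passed the test with siTIMP1. Of 83 genes with a tested probe, 0 were called higher and 0 lower at a limma adjusted p under 0.05, where 0.784% of all 17734 tested genes were called (0.0846% higher and 0.699% lower). Before adjustment, at a limma p under 0.05, 13 of the 83 were higher and 1 was lower, against 11.8% and 7.98% of all tested genes. This balance depended on the scaling: 4 were higher and 5 lower with arrays scaled to the 75th percentile of detected probes, and 18 higher and 0 lower with arrays scaled to the median of other detected probes. The 14 genes together are 16.9% of the members, beside 19.8% of all tested genes. Before adjustment the higher and lower members numbered 2 and 0 without siTIMP1 replicate 1, 4 and 0 without siTIMP1 replicate 2, 8 and 0 without siControl replicate 1, and 9 and 1 without siControl replicate 2.

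Log2 fold changes, siTIMP1 over siControl, ran between -0.12 and 0.19, or between 0.919-fold and 1.14-fold. Their SD over the 83 genes was 0.064, against 0.44 over all tested genes, most of which were dimmer. Among genes with a mean log2 signal of 6 or more, the SD was 0.064 for 81 members and 0.19 for 868 other genes. The middle of these distributions was similar in width, with quartiles of -0.00072 and 0.089 for the members and 0.0068 and 0.11 for the other genes. None of the 83 differed by more than 0.2 on the log2 scale, a size that 42.3% of all tested genes exceeded. The limma 95% interval, computed gene by gene, lay inside a 1.25-fold change in either direction for 82 of the 83, and for 22.1% of all tested genes. The exception was Rpl37, whose only probe was dim. For the 81 genes with a mean log2 signal of 6 or more, the interval bounds reached -0.22 and 0.30 at most, and standard errors were between 0.033 and 0.078.

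**Figure D1:**
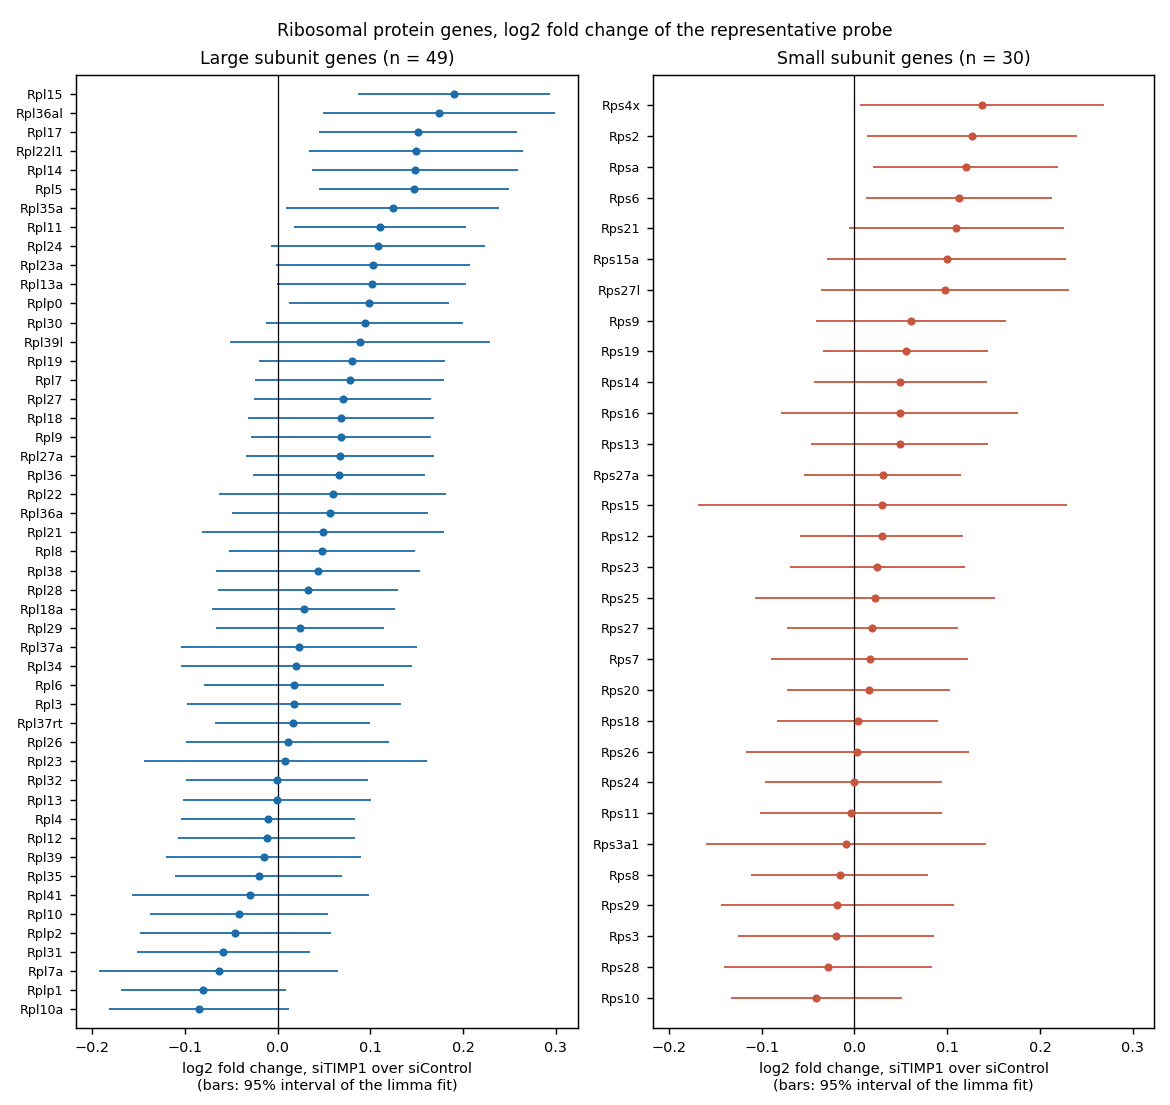
Log2 fold change (siTIMP1 over siControl, horizontal axis) of 49 large subunit and 30 small subunit genes with a mean log2 signal of 6 or more, 1 row per gene; points are limma estimates from 2 arrays per group and bars their 95% intervals. Estimates run between -0.085 for Rpl10a and 0.19 for Rpl15, and no bar reaches beyond 0.30.

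The median log2 fold change of the members was 0.030, beside 0.024 for all tested genes. It was 0.048 for the 51 tested large subunit genes and 0.023 for the 32 tested small subunit genes. The members' median turned to -0.011 when arrays were scaled to the 75th percentile of detected probes, where the median of all tested genes was -0.017. No direction is therefore given to the group. Values above 0 were found for 38 of 51 large and 22 of 32 small subunit genes, 72.3% of the members, against 54.0% of all tested genes. Among genes with a signal of 6 or more the shares were 71.6% of members and 76.5% of other genes. With the percentile over detected probes, 39 of the 83 members lay above 0. The groups did not overlap for 51 of the 83 genes (61.4%), 43 higher and 8 lower in siTIMP1, against 54.0% of all tested genes (31.0% higher and 23.0% lower). This split turned with the scaling too: scaled to the percentile of detected probes, 26 members were higher and 28 lower, beside 24.4% and 28.2% of all tested genes. The median signal of the 83 genes was 8.08 and 8.08 on the siTIMP1 arrays, against 8.04 and 8.04 on the siControl arrays. The median absolute difference between the arrays of a group was 0.034 within siTIMP1 and 0.032 within siControl, against 0.11 and 0.14 over all tested genes. The median absolute difference between group means was 0.049 for the members and 0.165 for all tested genes. Most of all tested genes were dimmer, and these differences were not compared at like signal.

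Fold change followed signal. Among the members with a mean log2 signal of 6 or more, the Pearson correlation of fold change with mean signal was -0.52 and the Spearman correlation -0.56 across 81 genes, which share the same 4 arrays and are no replicates. Across the 868 other tested genes of that signal, the Pearson correlation was -0.13 and the Spearman correlation -0.29. In the 27 members with a signal from 7 to under 8, 24 had values above 0 and the median was 0.068, and the 270 other tested genes in that range had a median of 0.059. In the 16 members from 8.5 to under 9, 7 had values above 0 and the median was -0.00053, with -0.0051 for the 52 other genes of that range. The 9 members from 6 to under 7 all lay above 0, with a median of 0.098, beside 0.080 for 462 other genes. With quantile normalization, which gives every array the same distribution of signals, the Pearson correlation among the members was -0.10. The part of brightness in the values above and below 0 was not tested further.

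**Figure D2:**
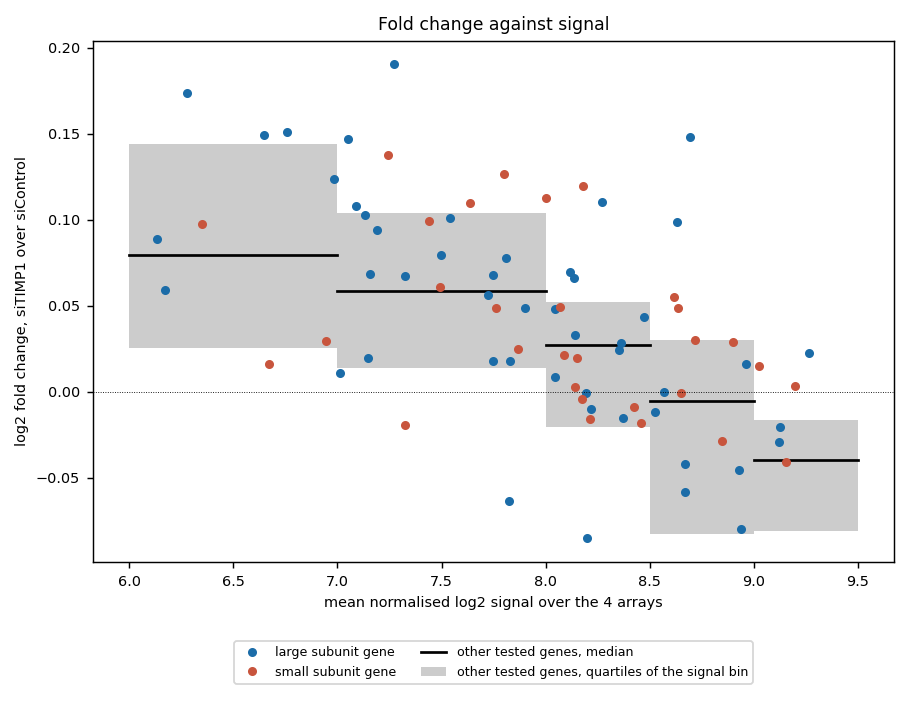
Log2 fold change (siTIMP1 over siControl, vertical axis) against mean normalised log2 signal over the 4 arrays for the same ribosomal protein genes, with a signal of 6 or more; points are genes, black lines and grey boxes the median and quartiles of the other tested genes in the same range of signal. Members and other genes both move downwards with signal, from medians of 0.098 and 0.080 in the lowest range to medians of -0.0084 and -0.040 in the highest.

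Rpl15, a core protein of the large subunit, had the highest value of all members. The log2 signals of Rpl15 were 7.35 and 7.38 on the siTIMP1 arrays, against 7.16 and 7.19 on the siControl arrays (log2 fold change 0.19, SE 0.040, limma adjusted p = 0.130). The groups did not overlap for that probe. A second Rpl15 probe had 6.86 and 6.85 in siTIMP1, against 6.83 and 6.80 in siControl, a log2 fold change of 0.038. The probes lie at chr14:19101657-19101716 and chr14:19102851-19102910 (mm9, minus strand), and are printed because they share a gene name and gave values that differ by more than the SD between genes:
Rpl15, first probe: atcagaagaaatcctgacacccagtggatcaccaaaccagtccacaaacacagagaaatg
Rpl15, second probe: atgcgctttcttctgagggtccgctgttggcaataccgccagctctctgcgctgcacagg
Neither probe passed the test, and the larger difference was seen with the first alone.

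Rpl5 and Rpl11 carry the 5S ribosomal RNA into the large subunit and, when unbound to ribosomes, inhibit MDM2 and so stabilise p53. Rpl5 had 7.12 and 7.13 in siTIMP1, against 6.97 and 6.98 in siControl (log2 fold change 0.15, SE 0.040, adjusted p = 0.178). Its second probe gave 0.16, with 6.73 and 6.69 against 6.51 and 6.58. Both probes thus held the siTIMP1 arrays above the siControl arrays without passing the test. The second lies at chr5:108333834-108333892 (mm9, plus strand) and shows the stretch on which this value rests:
Rpl5, second probe: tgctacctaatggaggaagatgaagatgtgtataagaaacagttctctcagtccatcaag
Rpl11 had 8.31 and 8.34 in siTIMP1, against 8.23 and 8.21 in siControl (log2 fold change 0.11, adjusted p = 0.220). The list of proteins known to bind MDM2 had 9 tested members, none called. By the brightest probes the median was 0.019, with values between -0.019 (Rps3) and 0.15 (Rpl5). The other probe of Rps3 gave 0.13, so that the sign of Rps3 depended on the probe.

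The stalk of the large subunit, which recruits the elongation factors, is built from Rplp0 at its base and the acidic proteins Rplp1 and Rplp2. Rplp0 had 8.68 and 8.68 in siTIMP1, against 8.59 and 8.57 in siControl (log2 fold change 0.099, adjusted p = 0.232). Rplp1 had 8.91 and 8.89 in siTIMP1, against 8.99 and 8.96 in siControl (-0.080, adjusted p = 0.306). Rplp2 had 8.91 and 8.90 in siTIMP1, against 8.92 and 8.99 in siControl (-0.046). Rplp0 thus lay above and its partners below the siControl arrays, all by less than the test could call. The other 2 probes of Rplp1 gave 0.048 and 0.069, so that the sign of Rplp1 depended on the probe.

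Proteins of the peptidyl transferase centre and of the tunnel through which the new chain leaves had 9 tested members, none called, with a median of 0.011. Rpl17, which lines the tunnel exit, had the highest value among them, with 6.83 and 6.84 in siTIMP1, against 6.69 and 6.67 in siControl (0.15, adjusted p = 0.180). Rpl3, which reaches towards the catalytic centre, had 0.018, the tunnel proteins Rpl4 and Rpl39 had -0.010 and -0.015, and Rpl10, which joins the large subunit late in its maturation, had -0.042. Among further large subunit genes, Rpl14 had 8.79 and 8.75 in siTIMP1, against 8.58 and 8.66 in siControl (0.15, adjusted p = 0.194). Rpl10a had 8.17 and 8.14 in siTIMP1, against 8.26 and 8.23 in siControl (-0.085, adjusted p = 0.314). Another bright Rpl10a probe gave 0.037, and a dim one gave 0.20 with an SE of 0.083. At an unadjusted limma p under 0.05, 9 of 51 large subunit genes were higher and 0 lower, beside 11.8% and 7.98% of all tested genes. Over all 83 members this split depended on the scaling, with 4 higher and 5 lower for the percentile of detected probes.

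Mutations in many ribosomal protein genes cause Diamond-Blackfan anaemia, a failure of red cell production. The 17 genes of the Diamond-Blackfan list had a median log2 fold change of 0.016 and no call.

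Rps2, which lies where the mRNA enters the small subunit, had 7.82 and 7.90 in siTIMP1, against 7.73 and 7.74 in siControl (0.13, adjusted p = 0.237), and its other tested probe gave 0.19. The array files place that other probe elsewhere on the chromosome, at chr17:42864841-42864900, and the first at chr17:24857583-24857642 (mm9, plus strand). Rpsa, also known as a laminin receptor precursor, had 8.22 and 8.26 in siTIMP1, against 8.10 and 8.14 in siControl (0.12, adjusted p = 0.218). Rps6, the substrate of the S6 kinases, had 8.03 and 8.08 in siTIMP1, against 7.94 and 7.95 in siControl (0.11, adjusted p = 0.237). In each of these 3 genes both siTIMP1 arrays lay above both siControl arrays. The same held for 43 of the 83 members and 31.0% of all tested genes. Scaled to the percentile of detected probes, it held for 26 members and 24.4% of all tested genes. Rps27a, made as a fusion with ubiquitin, had 0.030. Rps15 and Rps23, which reach into the decoding centre, had 0.030 and 0.025, and Rps26 and Rps28, at the mRNA exit, had 0.0030 and -0.029. Rps4x, which is encoded on the X chromosome, had 7.36 and 7.27 in siTIMP1, against 7.14 and 7.20 in siControl (0.14, adjusted p = 0.258). A second bright Rps4x probe had 7.35 and 7.22 in siTIMP1, against 7.17 and 7.17 in siControl (0.12). A further, dim Rps4x probe, designed on an expressed sequence tag and without a position in the array files, had a value of -0.66 with an SE of 0.59.

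**Figure D3:**
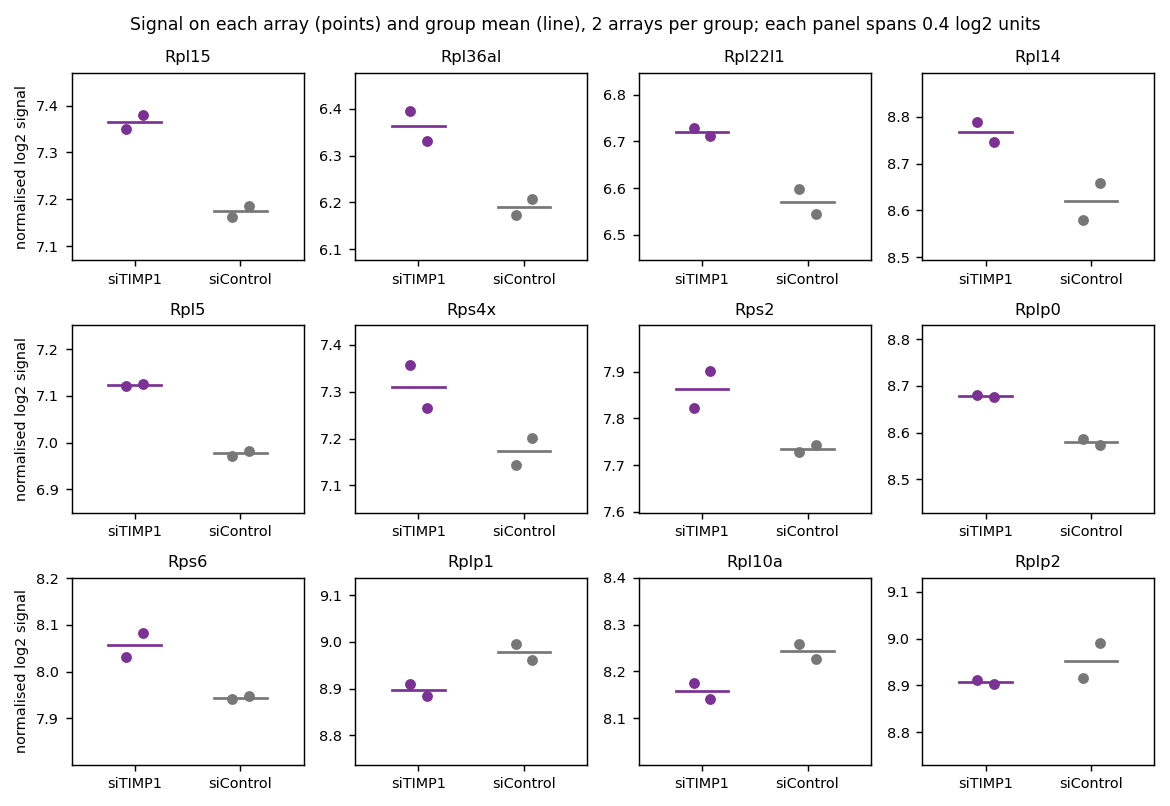
Normalised log2 signal on each array for 12 ribosomal protein genes, siTIMP1 left of siControl in each panel; points are arrays (2 per group), lines group means, and every vertical axis spans the same range. The siTIMP1 points sit above the siControl points in 9 panels and below them in those of Rplp1, Rpl10a and Rplp2. Groups did not overlap for 61.4% of the members and 54.0% of all tested genes.

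Paralogs of ribosomal protein genes, which can take the place of their relatives in some tissues or conditions, had 5 tested members of 8 on the array. Rpl22l1 had 6.73 and 6.71 in siTIMP1, against 6.60 and 6.54 in siControl (0.15), beside 0.059 for Rpl22. Rpl36al had 6.39 and 6.33 in siTIMP1, against 6.17 and 6.21 in siControl (0.17, adjusted p = 0.185), beside 0.056 for Rpl36a. Rps27l, known as a target of p53, had 6.45 and 6.35 in siTIMP1, against 6.31 and 6.29 in siControl (0.098, adjusted p = 0.375), beside 0.019 for Rps27. Rpl39l had 0.089, beside -0.015 for Rpl39. In these pairs the paralog had the higher estimate by the brightest probes. The second probes gave 0.048 for Rps27l and 0.079 for Rps27, the other order. Rpl7l1, whose only tested probe was dim, had 0.025, below the 0.078 of Rpl7. The differences within pairs were not tested. Rpl3l, known from striated muscle, Rpl10l, known from the testis, and Rps4l had no probe well above background on both arrays of a group and were not tested.

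Of the 60 genes with more than 1 tested probe, 35 had every probe of the same sign. The median SD of log2 fold changes between probes of 1 gene was 0.049, close to the SD of 0.064 between genes. No member probe was called among the 176 tested. At an unadjusted limma p under 0.05, 28 of these probes were higher and 3 lower. The shares over all tested genes, each read by its brightest probe, were 11.8% and 7.98%. Shares over all tested probes were not computed, so the probe counts have no like background. Probes of 1 gene are not separate observations, and the split of the member genes depended on the scaling. Rpl7 ranged between -0.14 and 0.19 over its 3 probes. A dim Rps20 probe had -0.46, while the others of that gene had 0.015 and 0.035.

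Ribosomal protein genes have many processed copies in the mouse genome, and signals of near-identical copies cannot be told apart by hybridisation. The array files place 7 member probes, of Rpl13, Rpl36, Rps27 and Rps29, on a chromosome other than the one RefSeq gives for the gene. These 7 had a median log2 fold change of 0.021 and values between -0.018 and 0.17. A probe placed elsewhere on the same chromosome, as for Rps2, is not among the 7. All 3 tested Rps29 probes are placed on chromosome 2, whereas the gene lies on chromosome 12, and they gave -0.018, 0.0036 and 0.021. Overlapping probes that differ in sequence were found for 9 genes. They are shown for Rps29 (42 shared positions, 3 mismatches) and Rplp1 (43 shared positions, 1 mismatch), as examples of probes that share a gene name and differ in their letters, with mismatched bases in capitals:
Rps29, chr2:172335003-172335062: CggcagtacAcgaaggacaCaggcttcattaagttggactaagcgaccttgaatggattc
Rps29, chr2:172335021-172335079: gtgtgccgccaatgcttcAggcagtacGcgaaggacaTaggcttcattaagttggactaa
Rplp1, chr9:61761276-61761701: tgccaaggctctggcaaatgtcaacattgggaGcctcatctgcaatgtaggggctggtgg
Rplp1, chr9:61761259-61761318: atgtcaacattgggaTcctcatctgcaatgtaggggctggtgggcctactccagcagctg
These positions are those of the array files (mm9, minus strand). The Rps29 pair had log2 fold changes of -0.018 and 0.0036, and the Rplp1 pair 0.069 and 0.048.

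The pyrimidine tract was looked for at the annotated starts of the members in RefSeq (GRCm38.p6), of which 77 starts of 65 genes were in the table used. An unbroken run of at least 6 C or T on the sense strand, touching the bases from 5 before to 10 after the start, was present at 36 of 77 member starts (46.8%), against 24.4% of all 32851 starts. The same search on the other strand, for runs of A or G read on the sense strand, gave 9.09% of member starts and 27.2% of all starts. The letters CTTTCC, within 20 bases of the start on either side, were found on the sense strand at 14.3% of member starts and 1.95% of all starts, and on the other strand at 0 member starts and 1.74% of all starts. CTTTCC consists of pyrimidines and can overlap the run. Genes with the run had a median log2 fold change of 0.033 (35 genes) and those without it of 0.039 (28 genes), and their ranges overlapped. The start windows of the 6 highest and 4 lowest members with 1 listed start and a signal of 6 or more are printed, with 15 bases on each side of the start and the run in capitals:
Rpl15, chr14:18270972-18271001, minus strand: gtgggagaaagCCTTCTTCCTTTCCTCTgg
Rpl36al, chr12:69184053-69184082, minus strand: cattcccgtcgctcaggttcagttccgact
Rpl22l1, chr3:28805493-28805522, plus strand: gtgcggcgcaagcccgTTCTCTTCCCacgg
Rpl14, chr9:120571502-120571531, plus strand: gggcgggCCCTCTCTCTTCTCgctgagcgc
Rpl5, chr5:107900513-107900542, plus strand: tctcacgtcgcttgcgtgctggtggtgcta
Rps4x, chrX:102189377-102189406, minus strand: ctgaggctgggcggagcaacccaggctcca
Rpl10, chrX:74270801-74270830, plus strand: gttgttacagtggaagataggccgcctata
Rplp2, chr7:141447636-141447665, plus strand: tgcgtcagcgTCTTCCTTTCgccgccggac
Rpl31, chr1:39367836-39367865, plus strand: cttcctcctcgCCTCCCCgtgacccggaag
Rpl7a, chr2:26910792-26910821, plus strand: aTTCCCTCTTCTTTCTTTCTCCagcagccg
Runs of 17, 10 and 14 bases thus stood at Rpl15, Rpl22l1 and Rpl14, with log2 fold changes of 0.19, 0.15 and 0.15, and runs of 10, 7 and 21 bases at Rplp2, Rpl31 and Rpl7a, with -0.046, -0.058 and -0.064. Rpl36al, Rpl5 and Rps4x among the highest and Rpl10 among the lowest had no such run. A match is a description of the letters and not a mapped start.

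Genes that work with the ribosomal proteins gave no calls in the fit as reported. Fau and Rack1, ribosomal proteins with other names, had values of 0.017 and 0.026. Of 54 tested translation initiation factors none was called and the median was 0.11. Values above 0 were found for 46 of them, beside 54.0% of all tested genes. Such a split depended on the scaling for the ribosomal protein genes. It was not recounted under other scalings for the initiation factors. Eif2b2, a subunit of the exchange factor for eIF2, had 5.45 and 5.42 in siTIMP1, against 5.07 and 5.07 in siControl (0.37, adjusted p = 0.0646), and was called with robust eBayes, with no filter and without siControl replicate 1. Elongation and release factors had a median of 0.055 over 12 genes, with Eef2, the translocation factor, at 0.15. Other TOP mRNAs had a median of 0.064 over 16 genes, with Eif3f at 0.19 and Hnrnpa1 at -0.17.

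Mitochondrial ribosomal proteins, which serve a separate ribosome, had a median of 0.093 over 78 genes. Of these, 61 had values above 0, beside 54.0% of all tested genes. None was called. At an unadjusted limma p under 0.05, 20 were higher and 3 lower, beside 11.8% and 7.98% of all tested genes. For the cytosolic members such splits depended on the scaling, and they were not recounted under other scalings for the mitochondrial list. Mrps34 had 4.28 and 4.26 in siTIMP1, against 3.87 and 3.89 in siControl (0.40, adjusted p = 0.0681). Mrps25 had 3.57 and 3.54 in siTIMP1, against 3.95 and 4.01 in siControl (-0.42, adjusted p = 0.0731). Both differences were larger than that of any tested cytosolic member by its brightest probe. Dim further probes of Rps4x and Rps20 had larger ones, -0.66 and -0.46. Mrps34 and Mrps25 were themselves dimmer than the 81 members with a signal of 6 or more. Both were called with no filter.

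Factors that assemble ribosomes in the nucleolus had a median of 0.084 over 59 genes, with Pes1 at 0.29, Nop14 at 0.42, Tsr1 at 0.33 and Nop10 at 0.27. Values of this list ran between -0.25 and 0.61, and 41 of the 59 lay above 0, beside 54.0% of all tested genes. RNA polymerase I genes, which transcribe ribosomal RNA, had a median of 0.12 over 15 genes, with Polr1c at 0.43, Polr1d at 0.30 and Ubtf at 0.12. Their values ran between -0.41 and 0.48, with 11 of the 15 above 0. The counts above 0 were not repeated under other scalings for these lists. Among 16 regulators of ribosomal protein synthesis the median was 0.059. The S6 kinase genes differed in sign, with Rps6kb2 at 0.45 (adjusted p = 0.160) and Rps6kb1 at -0.31 (adjusted p = 0.173), and Larp4, which binds mRNA tails, had -0.49 (adjusted p = 0.103). Genes of ribosome rescue and ribosomal protein chaperones had a median of 0.077 over 14 genes, with Pelo at 0.17. No gene of these lists was called in the fit as reported, and Eif2b2, Mrps34 and Mrps25 were among those called under other settings.

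**Figure D4:**
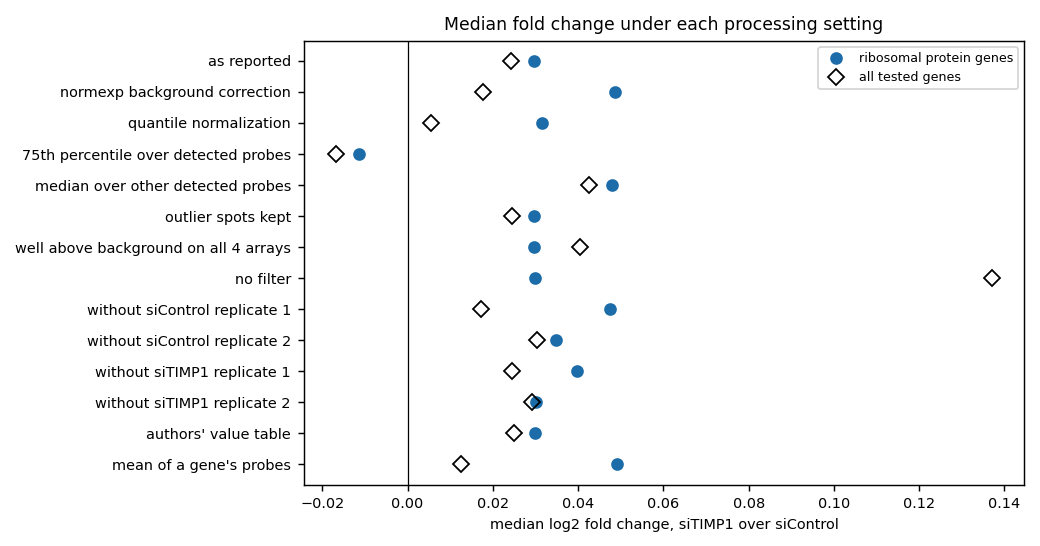
Median log2 fold change (siTIMP1 over siControl, horizontal axis) of the ribosomal protein genes (filled circles) and of all tested genes (open diamonds) under each processing setting, 1 setting per row. The members' median runs between -0.011 and 0.049, and it is below 0 with the 75th percentile over detected probes alone, where the median of all tested genes is below 0 too.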

How the data were processed

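The authors deposited scanner files with spot intensity values, made by Agilent Feature Extraction 11.5.1.1 according to the submitters' processing notes. Processed intensity was corrected for spatial and multiplicative trends inside each array and carries no scaling between arrays, per the file headers. The authors' deposited value table holds log2 values that followed the log2 processed signal less 1 constant per array.

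From the scanner files, log2 processed signals were scaled by the 75th percentile of each array's non-control spots, outlier spots were left out and spots of a probe were averaged. A probe was tested with values on all 4 arrays and signals well above background on both arrays of a group, which held for 26015 of 56605. The siTIMP1 and siControl arrays were fitted with limma 3.58.1 under R 4.3.3 by lmFit and eBayes with a trend. P-values were adjusted by Benjamini-Hochberg across the 26015 probes, with calls at 0.05. A gene is its tested probe of highest mean. Names are those of the array files, updated through RefSeq accessions for genes that are no members. The fit was tested on simulated arrays. Genes named are the 10 highest and 10 lowest members, the 5 brightest, the role lists and up to 4 genes of smallest p per pathway list; not all are printed. Members and lists were chosen with earlier results of these data known. The number of arrays limits the precision. Sequences came from the array files and RefSeq; those of genes on chromosome 18 are not printed. Some genes are not reported here.

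Alternatives were normexp with an offset of 50, other scalings, filters and variance models, outlier spots included, averaging the probes of a gene, the authors' table, other thresholds, and fits with each array omitted in turn.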

Additional observations from a re-analysis of the deposited data

How the results depend on the processing

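No member was called under any alternative with an adjusted p, at thresholds of 0.05 and 0.1, and the lowest adjusted p of a member ran between 0.107 and 0.478 over these settings. At an unadjusted p under 0.05, 13 were higher and 1 lower as reported, 4 and 5 when scaled to detected probes' percentile, 18 and 0 when scaled to the median of other detected probes, 6 and 1 after quantile normalization, 3 and 0 with no filter, and none with eBayes without a trend. Members whose groups did not overlap, 43 higher and 8 lower as reported, were 26 and 28 when scaled to that percentile and 48 and 5 under the median scaling, a comparison added after seeing the data. The median of the members, 0.030 as reported, was 0.049 with normexp, 0.048 with arrays scaled to the median of other detected probes, 0.049 with a gene's probes averaged and -0.011 with the percentile over detected probes, and 0.030 to 0.048 when 1 array was left out. For large subunit genes (0.048) these medians were 0.059 with normexp, 0.039 after quantile normalization, 0.0073 for the percentile over detected probes, 0.066 with the median of other probes and 0.043 to 0.065 without 1 array. For small subunit genes (0.023) they were -0.018 with the percentile over detected probes, 0.041 with the median of other probes, 0.028 with the authors' table, 0.049 with a gene's probes averaged and 0.023 to 0.040 without 1 array. The cause of these moves was not tested. With no filter, the median of all tested genes was 0.14 and that of the members 0.030. Timp1 was at -5.22 with no trend (adjusted p = 0.133) and between -5.41 and -5.04 when 1 array was left out, with adjusted p of 0.137 and 0.184 without siTIMP1 replicate 1 and 2. Of all tested genes, 139 were called as reported, none without siTIMP1 replicate 1, without siTIMP1 replicate 2 or without a trend, 1053 without siControl replicate 1 and 299 without siControl replicate 2. Among named genes that are members, 870 values under alternatives kept their side of the threshold and 14 crossed it, all at the unadjusted threshold. Among the pathway genes 539 kept it and 39 gained a call. With 1 array left in a group, limma assumes that it varies like the others. No paired analysis was possible because titles give no replicate number that siTIMP1 and siControl samples have in common. Dim probes limit what can be seen of Rpl37, Rpl3l and Rpl10l. The Rps4l probe differed between the arrays of a group, with -4.93 and -0.19 in siTIMP1, against -4.64 and -1.66 in siControl. It was well above background on replicate 2 of each group alone.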

Other observations

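Probes for names with -ps, left out of the members as pseudogenes, gave values of the same size. Rpl34-ps1 had 6.95 and 6.87 in siTIMP1, against 6.82 and 6.95 in siControl (log2 fold change 0.025), and Rpl17-ps8 had 0.10, neither with a limma adjusted p below 0.286. The 2 probes of Rpl31-ps12 had 0.053 and -0.018. Rps15a-ps6 was dim and had -0.51 with an SE of 0.36. Rps19bp1 had 3.29 and 3.38 in siTIMP1, against 3.22 and 3.13 in siControl (0.16, adjusted p = 0.315).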
